A study of Arabidopsis thaliana with 16 samples.

Results

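The plastid carbon metabolism genes followed here were PRK, SBPASE, PPDK and AT5G58330, 4 in number. They were chosen by name as carbon-metabolism loci with a probe assigned to a single gene, and they are 4 of the 3439 probes on the array. PRK is locus AT1G32060, SBPASE is AT3G55800 and PPDK is AT4G15530, while AT5G58330 is annotated as the NADP-dependent malate dehydrogenase. The study measured total RNA of Arabidopsis thaliana, ecotype Columbia 0, on 16 arrays. The mutant psag, without PSI-G, a protein of photosystem I, had 8 arrays numbered 1 to 8, and wild type (WT) had 8 arrays numbered in the same way. The labels name no allele, plant age, tissue or light regime, and do not say whether numbered replicates were separate plants.

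In the Calvin-Benson cycle, CO2 is fixed onto ribulose bisphosphate, and most of the triose phosphate formed is used to rebuild that acceptor. Sedoheptulose bisphosphatase, encoded by SBPASE, removes a phosphate from a sugar intermediate of the rebuilding phase, and phosphoribulokinase, encoded by PRK, makes the acceptor itself with ATP. NADP-malate dehydrogenase reduces oxaloacetate to malate with NADPH and feeds the malate valve, which exports reducing power from the chloroplast. These 3 enzymes are switched on in the light when thioredoxin reduces their disulphides, with electrons that pass through photosystem I and ferredoxin. Pyruvate orthophosphate dikinase, encoded by PPDK, interconverts pyruvate and phosphoenolpyruvate, and is best known from C4 leaves. Photosystem I is the complex that PSI-G belongs to, so the comparison of psag with WT asks whether transcripts of these enzymes differ when that complex is altered.

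The deposited intensities are linear and scaled by array, with a maximum of 100 on 15 of 16 arrays, and sums per array ran from 2314 to 3407 in psag and from 2967 to 3460 in WT. Replicates 1 and 2, 3 and 4, 5 and 6, and 7 and 8 were averaged within a genotype, which gave 4 measurements each. Deviations from the group mean correlated between neighbours at 0.45 to 0.73 in all 4 psag pairs. In WT they did so at 0.32 for replicates 1 and 2 and 0.54 for 7 and 8, but at -0.12 for 3 and 4 and 0.09 for 5 and 6, so the averaging is weakly founded there and the values with 16 separate arrays are given where they change a call. Psag replicates 7 and 8 stood apart: their average correlated with the other 7 measurements at 0.82 to 0.85, where those 7 correlated among themselves at 0.93 to 0.98. Results are therefore given with and without that measurement. The psag group mean included these arrays, which can raise the correlation of the other psag arrays with each other. Non-neighbours were not compared, so the psag values do not show that the averaging is well founded there either. In the comparison of psag with WT, 0 of the 3 members that could be tested passed (limma, adjusted p under 0.05), where 0.32% of 3438 probes did. At an unadjusted p under 0.05 it was 1 of 3, PRK, which was lower in psag, against 12.7% of all probes in either direction and 5.44% lower in psag. The 4 psag measurements were apart from the 4 WT measurements for 0 of 3, against 10% of all probes. Without psag replicates 7 and 8, 0 of 3 passed, against 2.47% of all probes.

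PRK read lower on the psag arrays, which were close to each other, but did not pass the test over all probes. Its deposited intensity was lowest at 0.323, median 0.449 and highest at 0.559 on the psag arrays, against 0.516, 0.756 and 1.62 on the WT arrays. All 8 psag arrays were below the WT median, before and after normalization between arrays. Below the lowest WT array were 6 of 8 as deposited and 2 of 8 after normalization.

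Log2 values below are log2(intensity + 0.0407) after quantile normalization, a scale that understates changes of dim probes. The psag measurements of PRK were -1.30, -1.07, -0.97 and -0.95, against -0.06, 0.28, -0.60 and -1.03 in WT, each in the order of the replicate numbers. The groups overlapped through 1 WT measurement, replicates 7 and 8, which lay inside the psag range. PRK averaged -1.07 ± 0.16 in psag and -0.35 ± 0.58 in WT (SD, n = 4 each).

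The difference was -0.72 ± 0.28 (SE), with a 95% interval of -1.39 to -0.05, or 1.65-fold higher in WT. This missed the threshold when adjusted over all probes (limma, adjusted p = 0.356, n = 4 each), with a p that ranked 375 among 3438 from the smallest. Without psag replicates 7 and 8 the difference was -0.76 ± 0.33 (SE; limma, adjusted p = 0.297), with a 95% interval of -1.56 to 0.04. Without WT replicates 7 and 8, the WT measurement inside the psag range, it was -0.94 (limma, adjusted p = 0.208). Leaving out WT replicates 3 and 4 made it smaller, at -0.51 (limma, adjusted p = 0.532). It was -0.62 without WT replicates 1 and 2 (limma, adjusted p = 0.525) and -0.80 without 5 and 6 (limma, adjusted p = 0.440). With 16 separate arrays in place of averaged neighbours, PRK passed (limma, adjusted p = 0.0419), as did 330 of all probes. WT arrays 3 and 4 read 1.62 and 0.896, a difference of 0.80 between neighbours on the log2 scale, whereas psag neighbours differed by 0.05 to 0.09.

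**Figure D1:**
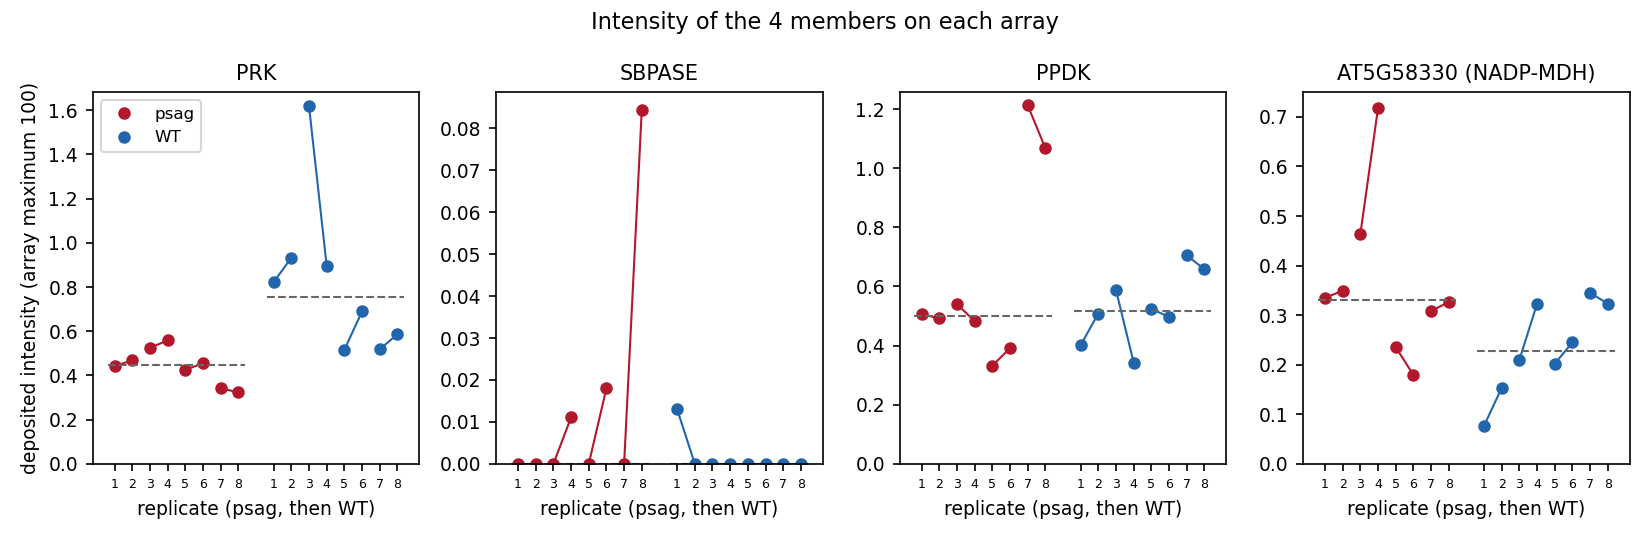
Deposited intensity of PRK, SBPASE, PPDK and AT5G58330 on each array, with psag replicates 1 to 8 left of WT replicates 1 to 8 in each panel. Lines join the neighbouring replicates that were averaged and dashed lines mark group medians. PRK lies at 0.323 to 0.559 in psag and 0.516 to 1.62 in WT, and PPDK is highest on psag arrays 7 and 8.

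SBPASE, the other Calvin-Benson enzyme with a probe of its own, was near the bottom of the scale. It was listed at 0 on 5 of 8 psag arrays and 7 of 8 WT arrays. The psag arrays above 0 were replicates 4, 6 and 8, at 0.0111, 0.0180 and 0.0845. In WT, replicate 1 was at 0.0130 and the others were at 0. In each of the 3 psag cases the neighbouring array was at 0. The values above 0 were below the pseudocount of 0.0407 on all but psag replicate 8, so no fold change and no test are given. A listed 0 says only that the file holds no signal for that probe, not that the transcript was absent.

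PPDK read lower in 3 psag measurements and higher in the remaining one, replicates 7 and 8. Its deposited intensity was lowest at 0.332, median 0.499 and highest at 1.21 in psag, against 0.343, 0.516 and 0.705 in WT. The psag measurements were -1.17, -1.15, -1.23 and 0.59 on the log2 scale, against -0.87, -1.005, -0.84 and -0.71 in WT. The first 3 psag measurements were below all 4 WT measurements, and replicates 7 and 8 were above them all. The lower separation held only after averaging. On single arrays, 1 of 8 psag arrays was below the lowest WT array, both as deposited and after normalization. That WT array, replicate 4, read -1.34 and its neighbour, replicate 3, read -0.67. Neighbours differed by up to 0.66 in WT and 0.22 in psag.

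PPDK averaged -0.74 ± 0.89 in psag and -0.86 ± 0.12 in WT (SD, n = 4 each). The difference was 0.11 ± 0.42 (SE), with a 95% interval of -0.88 to 1.11 (limma, adjusted p = 0.959). Without psag replicates 7 and 8 the sign turned, to -0.33 ± 0.08 (SE), with a 95% interval of -0.52 to -0.14, and PPDK again missed the threshold (limma, adjusted p = 0.104). The 3 remaining psag measurements lay below the 4 WT measurements, as they did for 7.65% of all probes. Replicates 7 and 8 were 1.78 above the mean of the other psag measurements, and 91 of 3438 probes, PPDK included, were at least that far above it. The part of the array differences in this value was not tested.

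AT5G58330, the NADP-malate dehydrogenase locus, averaged higher in psag, with wide scatter in both genotypes, and did not pass. Its deposited intensity was lowest at 0.179, median 0.331 and highest at 0.718 in psag, against 0.0771, 0.228 and 0.345 in WT. As deposited, 3 of the 8 psag arrays, replicates 2, 3 and 4, were above the highest WT array and none was below the lowest. After normalization, psag replicates 3, 4, 7 and 8 were above the highest WT array, and again none was below the lowest.

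The psag measurements were -1.70, -0.99, -1.93 and -0.99, against -2.37, -1.67, -1.90 and -1.75 in WT. Psag replicates 3 and 4, and 7 and 8, were above all WT measurements, and the other psag measurements lay within the WT range. AT5G58330 averaged -1.40 ± 0.49 in psag and -1.92 ± 0.32 in WT (SD, n = 4 each).

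The difference was 0.52 ± 0.27 (SE), with a 95% interval of -0.13 to 1.17 (limma, adjusted p = 0.509). Without psag replicates 7 and 8 it was 0.38 ± 0.28 (SE; limma, adjusted p = 0.576). Neighbouring arrays of this probe differed by up to 0.67 in psag and 0.68 in WT, with medians of 0.23 and 0.38. The measurements of one genotype ranged over 0.95 in psag and 0.71 in WT.

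**Figure D2:**
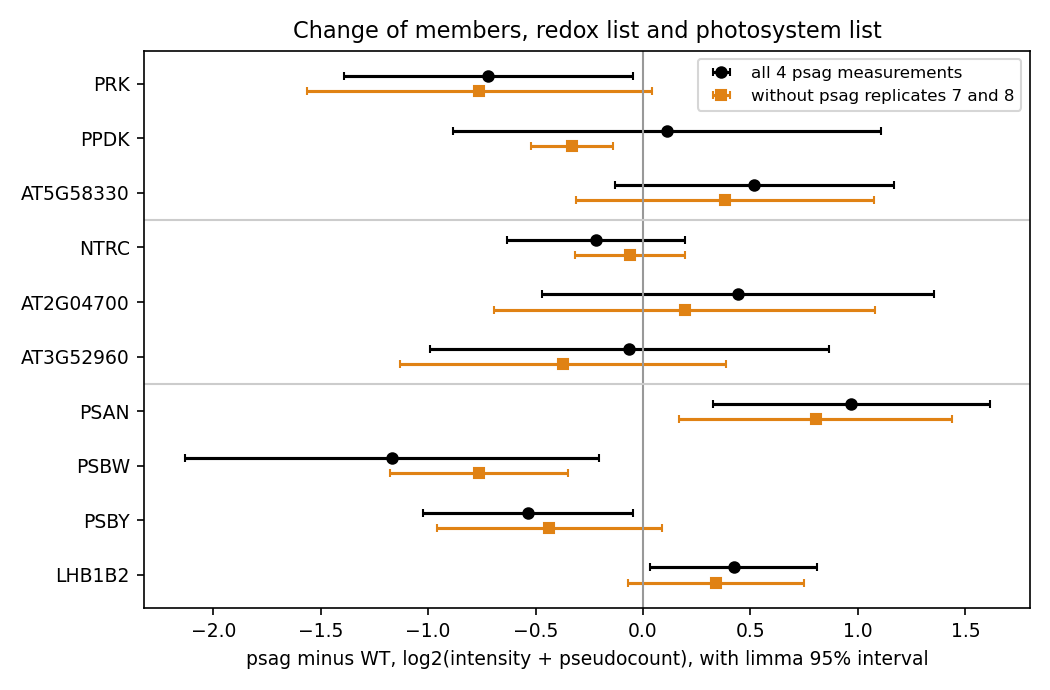
Difference of psag minus WT on the log2(intensity + pseudocount) scale with the limma 95% interval, for the 3 tested members (top), 3 stromal redox genes (middle) and 4 photosystem genes (bottom). Black circles use all 4 psag measurements and orange squares leave out psag replicates 7 and 8. PRK is at -0.72 and -0.76, while PPDK is at 0.11 and -0.33.

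Whether the members differed from each other in their change was tested within measurements, as the log2 value of 1 member minus that of another. The 3 pairs of tested members were compared between genotypes by an exact two-sided permutation test over 70 groupings, whose smallest p is 0.0286. AT5G58330 minus PRK was -0.33 ± 0.47 in psag and -1.57 ± 0.71 in WT (SD, n = 4 each), a difference of 1.24 (exact permutation p = 0.0571, adjusted p = 0.171 over the 3 pairs). It ran from -0.96 to 0.09 in psag and from -2.31 to -0.72 in WT, so that the groups overlapped. Without psag replicates 7 and 8 the difference was 1.14 (exact permutation p = 0.114). Without WT replicates 7 and 8, the WT measurement that lay in the psag range, it was 1.52. Leaving that measurement out separated the groups, which fixed the exact permutation p at 0.0286, the smallest possible of 35 groupings. Leaving out WT replicates 1 and 2, 3 and 4, or 5 and 6 gave 0.99, 1.11 and 1.33.

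PRK minus PPDK was -0.33 ± 0.82 in psag and 0.50 ± 0.70 in WT (SD, n = 4 each), a difference of -0.83 (exact permutation p = 0.229, adjusted p = 0.343). Without psag replicates 7 and 8 it was -0.43 (exact permutation p = 0.4). AT5G58330 minus PPDK differed by 0.41 between psag and WT (exact permutation p = 0.4, adjusted p = 0.4), and by 0.71 without psag replicates 7 and 8 (exact permutation p = 0.0857). No pair passed after adjustment, but 1 differing pair alone could reach no adjusted p below 0.0857, so the adjusted values cannot show that the members changed alike.

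**Figure D3:**
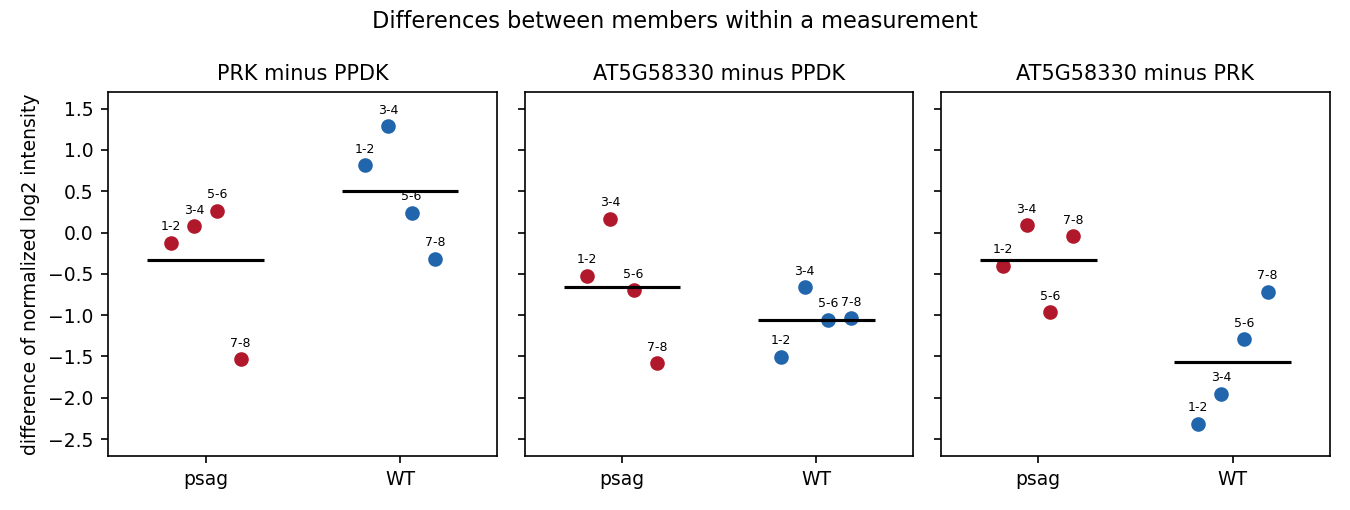
Difference between the normalized log2 values of 2 members within each measurement, psag left of WT. Points are averaged neighbouring replicates, labelled by their numbers, and bars are group means. AT5G58330 minus PRK has means of -0.33 in psag and -1.57 in WT, and psag replicates 7 and 8 are lowest in both panels that subtract PPDK.

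Few other genes of these pathways had a probe assigned to a single gene. Of 26 Calvin-Benson loci listed, only PRK and SBPASE did, and 1 more lay on a probe shared by several genes. Of 20 loci for pyruvate, phosphoenolpyruvate and malate metabolism, PPDK and AT5G58330 did, with a median change of 0.32, against 0 over all probes tested. The median was 0.03 without psag replicates 7 and 8, against -0.02 over all probes. For the lists of photorespiration, starch and sucrose, and the oxidative pentose phosphate pathway the number was 0 of 14, 0 of 17 and 0 of 6 loci.

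Of 18 stromal redox loci, 3 had such a probe and 0 passed (limma). NTRC, an NADPH-dependent thioredoxin reductase of the chloroplast that can reduce stromal enzymes without ferredoxin, averaged -1.36 ± 0.36 in psag and -1.14 ± 0.07 in WT (SD, n = 4 each; limma, adjusted p = 0.665). Its lowest measurement was psag replicates 7 and 8, at -1.83, and without it the difference was -0.06 in place of -0.22. The other loci of this list, AT2G04700 and AT3G52960, differed by 0.44 and -0.06 (limma, adjusted p = 0.702 and adjusted p = 0.993), and by 0.19 and -0.37 without psag replicates 7 and 8. The median change of the list was -0.06 both with and without that measurement.

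Of 24 photosystem and antenna loci, kept as markers of green tissue, 4 had a probe of their own and all 4 were above 0 on every array. Lists for roots, seeds and senescing leaves had 0 measured loci, so the tissue was checked only for the presence of photosynthetic transcripts. PSBW, a small photosystem II subunit, had intensities of 8.17 to 44.2 in psag and 49.2 to 87.7 in WT. It differed by -1.17, and PSBY, another such subunit, by -0.53. PSAN, a lumenal subunit of photosystem I, differed by 0.97, and the antenna gene LHB1B2 by 0.42. None of the 4 passed (limma, adjusted p = 0.309, adjusted p = 0.349, adjusted p = 0.211 and adjusted p = 0.349 in this order), and 2 lay on each side of 0. All 4 had an unadjusted p under 0.05, between 0.00927 and 0.0371, as 12.7% of all probes did. The psag measurements were all above those of WT for PSAN and all below them for PSBW, where the groups were apart for 10% of all probes. Leaving out psag replicates 7 and 8 gave -0.76 for PSBW, -0.44 for PSBY, 0.80 for PSAN and 0.34 for LHB1B2, and none passed. The unadjusted p (limma) was then 0.0870 for PSBY and 0.0873 for LHB1B2. It stayed under 0.05 for PSBW and PSAN, at 0.00421 and 0.0217.

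The measurement of WT replicates 7 and 8 was the lowest of the WT measurements for PRK, at -0.67 from the WT mean. The same held for PSAN at -0.64, PSBW at -0.37, PSBY at -0.55 and LHB1B2 at -0.37. Among the redox genes it held for AT2G04700 at -0.68, but not for NTRC at 0.01 or AT3G52960 at -0.02. Of the 2441 probes above 0 on all arrays, this measurement was the lowest of the 4 in WT for 31.8%. It was the highest WT measurement for PPDK, at 0.15, and lay at 0.18 for AT5G58330. The part of this measurement in the spread of WT was not tested.

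**Figure D4:**
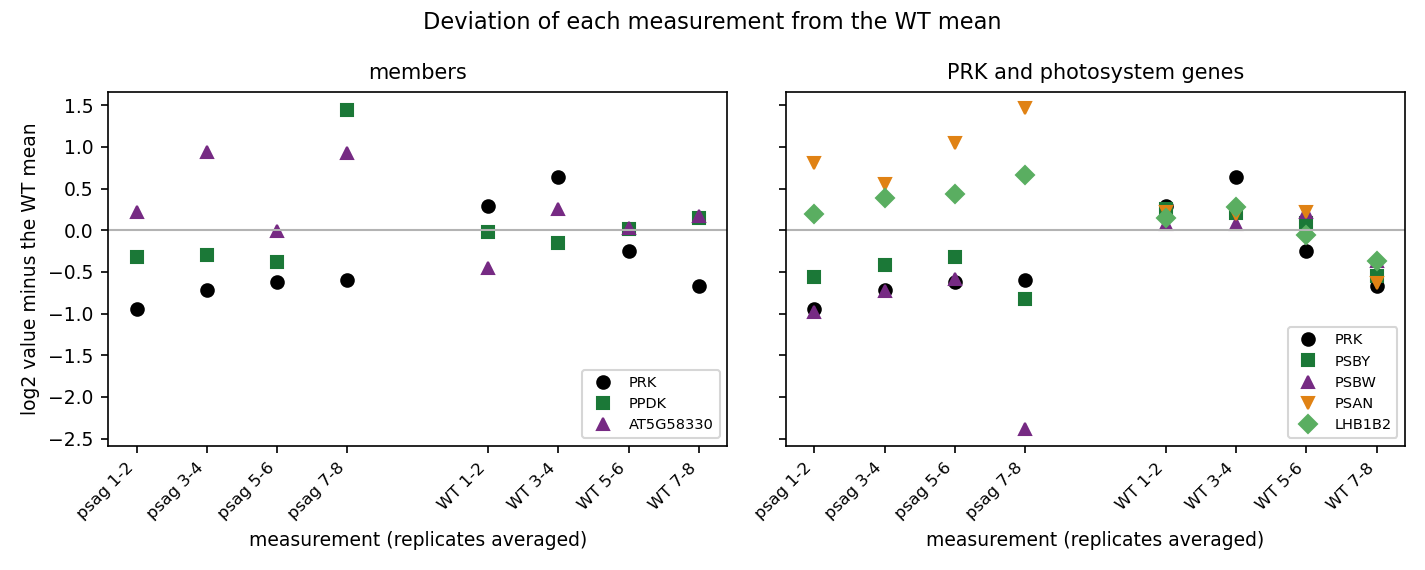
Normalized log2 value of each measurement minus the WT mean of the same gene, psag measurements left of WT, for the members (left) and for PRK beside 4 photosystem genes (right). Psag replicates 7 and 8 are at 1.45 for PPDK and -2.39 for PSBW, and WT replicates 7 and 8 are below the WT mean for PRK and all 4 photosystem genes.

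The members did not share 1 pattern over the 8 measurements. The correlation of PRK and PPDK was -0.07, that of AT5G58330 and PPDK 0.45, and that of AT5G58330 and PRK -0.43. Without psag replicates 7 and 8 they were 0.32, -0.37 and -0.41 over 7 measurements. These values, and those below, are descriptions over measurements that share arrays and genotype.

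Among the other 495 single-gene probes above 0 on all arrays, those most like PRK were AT1G13990, PSBY and AT1G74470, at r = 0.92, 0.85 and 0.83 over 8 measurements and r = 0.96, 0.93 and 0.95 without psag replicates 7 and 8. AT1G74470 is annotated as geranylgeranyl reductase, the enzyme that supplies the phytyl chain of chlorophyll, and it differed by -0.39 (limma, adjusted p = 0.428). AT1G13990 differed by -0.67 (limma, adjusted p = 0.357).

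Those most like PPDK were AT4G23110, AT5G62360 and AT1G61990, at r = 0.99, 0.98 and 0.98, which became r = 0.90, 0.82 and 0.76 without psag replicates 7 and 8. Those most like AT5G58330 were AT1G72890, AT5G48110 and AT2G38500, at r = 0.89, 0.89 and 0.79, and at r = 0.86, 0.83 and 0.74 without that pair. Leaving that pair out also changed which gene came first: it was then AT5G19210 for PRK at r = 0.96, AT3G57120 for PPDK at r = 0.95 and AT1G53260 for AT5G58330 at r = 0.91. With all 8 measurements, the median correlation over the 495 probes was -0.04 for PRK, 0.07 for PPDK and -0.02 for AT5G58330. The genes named were picked as the highest of the 495, so the median is no reference for their r.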

How the data were processed

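Total RNA of psag and WT plants was measured on 16 arrays. The deposited table holds linear intensities between 0 and 100, a unit read from the values. Scanning, correction and scaling by the authors are not stated in the sources used here. No background measure was used, and precision is limited by the number of arrays. Gene names came from GEO's platform annotation and a RefSeq gene table of TAIR10.1: 692 probes had 1 gene, 870 several and 1877 none, and 690 of the 692 matched.

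Intensities were taken as log2(intensity + 0.0407), the 5th percentile of positive intensities, quantile normalized, averaged over neighbouring replicates and fitted in limma 3.58.1 (R 4.3.3; lmFit and eBayes; Benjamini-Hochberg over 3438 probes; 1 locus with several probes kept the brightest). The fit was tested on simulated data. P-values reflect only the spread among these measurements, and that spread may be technical. Deviations of neighbours correlated at 0.45 to 0.73 in psag but at -0.12 to 0.54 in WT, and the labels mention no such pairs, so the averaging is a choice. No probe was named as PSAG, so the mutated gene was not checked.

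Members, lists, the averaging and the tests were chosen with earlier results of these data known. Named were the 4 members, list loci with a single-gene probe (all where a list had 5 or fewer) and the 3 loci most correlated with each member above 0 on all arrays. Alternatives covered normalization, pseudocount, filters on dim probes, averaging, replicate blocks, variance and left-out arrays or pairs.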

Additional observations from a re-analysis of the deposited data

Results flagged for a closer look

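Over 20 groups of 4 measurements of the named genes, 2 held a measurement far from the other 3, where chance gives about 1 in 20. In psag the gap of PPDK was 0.955 of the whole range, with replicates 7 and 8 at 0.59 and the others at -1.23 to -1.15 on the log2 scale. In WT the gap of PSAN was 0.968 of the range, with replicates 7 and 8 at 0.91 and the others at 1.75 to 1.77.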

How the results depend on the processing

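The differences of PRK and AT5G58330 kept their sign under all 37 alternatives, at -0.94 to -0.51 for PRK and 0.37 to 0.70 for AT5G58330. PRK passed only with 16 separate arrays, at -0.72. PPDK changed sign with array weights, at -0.29, and with psag replicates 7 and 8 left out before normalization, a setting added after seeing the data, at -0.33; leaving out 1 array or pair gave -0.33 to 0.28, the lowest without psag replicates 7 and 8. AT5G58330 minus PRK stayed at 1.24 with 16 separate arrays (exact permutation p = 0.00140) and with the 16-array replicate block (exact permutation p = 0.00781), and leaving out 1 array or pair gave 0.99 to 1.52. PRK minus PPDK stayed at -0.83 with 16 separate arrays (exact permutation p = 0.0353) and with that replicate block (exact permutation p = 0.0234). Here neighbours count as separate samples; the replicate block on averaged pairs gave exact permutation p = 0.125 for the first difference and 0.25 for the second, where 0.125 is the smallest possible. SBPASE had no difference to recompute.

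The count of 11 probes past the threshold (9 higher, 2 lower) was 0 with median centring, 6 with the lower pseudocount of 0.00856, 3 without the dimmest 25% of probes, 2 without the 130 probes listed at 0 throughout, 4 with limma-trend and 102 with array weights. It was 330 with 16 separate arrays, 113 with neighbours as a random block and 82 with psag replicates 7 and 8 left out before normalization. Leaving out 1 array or pair gave 0 to 85, with 85 without psag replicates 7 and 8 and 0 without psag replicates 1 and 2 or WT replicates 1 and 2, 5 and 6, or 7 and 8. Single arrays that moved it by over 1.5 times were psag replicate 7 (3 left without it), WT replicates 1 and 4 (5 left without either) and WT replicate 8 (7 left). Leaving out psag replicates 3 and 4 gave 2, psag 5 and 6 gave 4 and WT 3 and 4 gave 1. The cause was not tested.

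With averaged pairs as a replicate block, 1 probe passed (0 higher, 1 lower), and no member did (limma, adjusted p = 0.928 for PPDK, adjusted p = 0.484 for PRK and adjusted p = 0.395 for AT5G58330). The replicate block over 16 arrays gave 287 probes. Deviations of same-numbered arrays correlated across genotypes at 0.05 to 0.21. The numbers were not taken as pairs, which was a choice, as WT neighbours 3 and 4, and 5 and 6, were averaged at -0.12 and 0.09.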
